A study of Mus musculus with 12 samples.

Results

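The 10 genes described here are Dlx1, Dlx2, Dlx5, Dlx6, Gsx2, Six3, Sp8, Sp9, Gad1 and Gad2, which are transcribed in the ventral telencephalon or make the transmitter GABA. They were taken by symbol from the 55487 gene identifiers of each library, and all 10 passed the filter on low counts that left 16798 genes for testing. They were read in poly(A) RNA from the dorsal cortex, where the ventricular zone had been cut out by laser microdissection from mouse embryos. The mice carry a knock-in at ROSA26 in which a stop sequence between loxP sites precedes p18 (p18INK4c, the cyclin-dependent kinase inhibitor encoded by Cdkn2c), joined through P2A to the fluorescent protein mKO2. Tamoxifen was given in all 4 groups, so no group was without the drug, and whether exposure was equal was not tested. By design the groups differ in p18mKO2 status and stage, and library measures that differed as well are given below. The groups, each of 3 libraries, were p18mKO2+ (labelled p18-overexpressing) and p18mKO2- (labelled normal) at embryonic day E13.5, and the same pair at E16.5. The labels name no Cre driver or litter and do not say whether a library is 1 embryo. The p-values rest on a spread within groups that was estimated over all 12 libraries together. In all groups but E13.5 p18mKO2-, Y-linked levels differed between libraries (given below), so those libraries were not all repeats of 1 sample. Part of the spread may still be technical.

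The ventral telencephalon consists of the lateral, medial and caudal ganglionic eminences, whose progenitors make GABAergic neurons of the striatum, olfactory bulb and cortex, while the dorsal telencephalon makes glutamatergic projection neurons. Gsx2, Dlx and Sp transcription factors act in that ventral lineage, and many of its interneurons migrate tangentially into the cortex. Their RNA marks the GABAergic lineage by its transcription factors, and Gad1 and Gad2 by the enzymes that make its transmitter.

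Libraries held between 17101971 and 21837088 estimated counts. The targeted gene Cdkn2c was not called at either stage: it stood at 22.9, 32.6 and 21.6 CPM (counts scaled to library size by TMM) in E13.5 p18mKO2+ and 27.6, 24.6 and 17.7 CPM in E13.5 p18mKO2- libraries, and at 30.2, 30.95 and 25.8 CPM in E16.5 p18mKO2+ and 22.5, 31.8 and 15.1 CPM in E16.5 p18mKO2- libraries (replicates 1, 2 and 3, edgeR adjusted p = 0.798 and 1.00). The groups overlapped at both stages, so Cdkn2c counts do not separate the p18mKO2 labels. Whether transcripts of the knock-in are counted on Cdkn2c was not tested, so these values are no check on overexpression. Replicate 3 of p18mKO2+ held both Xist and Y-linked transcripts at E13.5 and again at E16.5 (Xist over 100 CPM and Y-linked genes over 10 CPM). Y-linked genes summed to 0, 178 and 88.9 CPM in E13.5 p18mKO2+ and 0.415, 0.109 and 0.117 CPM in E13.5 p18mKO2- (replicates 1, 2 and 3). At E16.5 they summed to 135, 182 and 81.7 CPM in p18mKO2+ and 0.0614, 168 and 0.232 CPM in p18mKO2-. Y-linked levels were thus mostly higher in p18mKO2+ libraries. The share of counts on the ribosomal RNA gene CT010467.1 was 2.81% to 6.64% in E13.5 p18mKO2+ against 5.32% to 8.80% in E13.5 p18mKO2-, and 1.79% to 3.97% in E16.5 p18mKO2+ against 6.28% to 13.6% in E16.5 p18mKO2-, without overlap at E16.5. All 15 genes of a dorsal pallium list (such as Emx1, Pax6, Neurog2 and Tbr1) were detected. Their summed levels were 2009 to 2176 TPM (RSEM's level per transcript length) in E16.5 p18mKO2+ and 2019 to 2251 TPM in E16.5 p18mKO2- libraries. The 10 genes summed to 239 to 458 and 103 to 125 TPM there. At E13.5 the dorsal sums were 1383 to 2227 TPM in p18mKO2+ and 1512 to 2104 TPM in p18mKO2-, and those of the 10 genes 342 to 496 and 95.4 to 281 TPM. In both E13.5 groups, but in neither E16.5 group, the library with the lowest dorsal sum had the highest sum of the 10 genes. These were p18mKO2+ replicate 3 and p18mKO2- replicate 2. The part of regional makeup was not tested.

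Of the 10 genes, 4 form 2 linked pairs. In GRCm38, Dlx1 (ENSMUSG00000041911, chr2:71528113-71533981) and Dlx2 (ENSMUSG00000023391, chr2:71543408-71546754) point towards each other on chromosome 2 with 9426 bases between them, and Dlx5 (ENSMUSG00000029755, chr6:6877805-6882085) and Dlx6 (ENSMUSG00000029754, chr6:6863334-6868568) do so on chromosome 6 with 9236 bases between them. Chromosome 2 also holds Sp9 (ENSMUSG00000068859, chr2:73271925-73284706), Gad1 (ENSMUSG00000070880, chr2:70553072-70602014) and Gad2 (ENSMUSG00000026787, chr2:22622205-22693874). The others are Gsx2 (ENSMUSG00000035946, chr5:75075601-75077893), Six3 (ENSMUSG00000038805, chr17:85613608-85629302) and Sp8 (ENSMUSG00000048562, chr12:118846329-118852576). Several have a partner on the opposite strand: 335 exon bases of Dlx1 overlap Dlx1as, 106 of Six3 overlap Six3os1, 104 of Dlx6 overlap Dlx6os2 and 270 of Sp9 overlap the coding gene Cir1. Whether counting used strand is not stated in these sources. RSEM's deposited posterior SD of the count was 0 in every library for 9 of the 10 genes and at most 0.07 reads for Gad1. Gene pairs in the files were then taken that share at least 100 exon bases, each gene with at least 1200 counts summed over the 12 libraries. Of 644 such opposite-strand pairs, 452 had an SD of 0 in all libraries, against 0 of 395 same-strand pairs.

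RefSeq promoters (GRCm38.p6, 250 bases before to 50 after a gene's start) were in the table for 8 of the 10 genes, Dlx5 and Dlx6 not among them. Shown are those of Six3, the gene with the largest p18mKO2 difference at E16.5 and in the average, of Dlx2 and Gsx2, which were lower at the later stage, and of Gad1, called at E13.5. They are Six3 at chr17:85620584-85620883 (+ strand), Dlx2 at chr2:71546705-71547004 (- strand), Gsx2 at chr5:75075351-75075650 (+ strand) and Gad1 at chr2:70561879-70562178 (+ strand), written 5′ to 3′ along the gene. For Six3 and Gad1 the RefSeq start lies inside the annotated gene given above. Capitals mark, on either strand, the letters CCAAT of the box of that name, GGGCGG for the GC box, TATAAA for the TATA box, and TAATTA as well as TAATTG for homeodomain cores.
Six3: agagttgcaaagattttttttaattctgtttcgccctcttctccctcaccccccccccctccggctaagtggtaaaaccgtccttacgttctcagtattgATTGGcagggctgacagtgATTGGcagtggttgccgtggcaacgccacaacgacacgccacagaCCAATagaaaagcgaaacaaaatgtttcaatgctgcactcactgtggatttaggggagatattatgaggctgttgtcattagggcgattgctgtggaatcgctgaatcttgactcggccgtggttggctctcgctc
Dlx2: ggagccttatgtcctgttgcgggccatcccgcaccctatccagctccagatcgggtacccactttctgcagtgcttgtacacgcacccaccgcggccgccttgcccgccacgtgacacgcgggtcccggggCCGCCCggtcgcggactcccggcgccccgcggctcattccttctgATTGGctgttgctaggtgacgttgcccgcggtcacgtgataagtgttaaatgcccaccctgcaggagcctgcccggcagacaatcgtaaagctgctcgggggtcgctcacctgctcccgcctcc
Gsx2: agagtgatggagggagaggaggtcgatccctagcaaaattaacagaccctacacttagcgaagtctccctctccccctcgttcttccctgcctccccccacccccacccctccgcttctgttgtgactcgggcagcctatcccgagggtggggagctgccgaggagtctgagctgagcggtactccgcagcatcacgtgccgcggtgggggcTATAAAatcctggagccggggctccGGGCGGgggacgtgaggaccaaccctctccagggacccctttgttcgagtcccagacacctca
Gad1: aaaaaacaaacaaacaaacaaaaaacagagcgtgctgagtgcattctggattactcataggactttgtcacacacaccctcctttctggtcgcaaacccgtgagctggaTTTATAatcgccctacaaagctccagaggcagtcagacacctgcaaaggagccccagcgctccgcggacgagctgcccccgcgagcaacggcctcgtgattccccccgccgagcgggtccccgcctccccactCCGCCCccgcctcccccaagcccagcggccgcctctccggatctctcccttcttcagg
CCAAT occurred in 6 of the 10 promoters, those of 5 of the 8 genes (Dlx2, Gad2, Six3, Sp8 and Sp9), and in 37.4% of all 32851 promoters of the table. GGGCGG occurred in 6 of the 10 promoters, those of 6 of the 8 genes (all but Gad2 and Six3), and in 35.7% of the table. TATAAA occurred in 3 of the 10 (of Gad1, Gsx2 and Sp8) and in 13.6% of the table. The homeodomain core TAATTA was found in an Sp8 promoter alone and in 5.3% of the table, and TAATTG in Sp9 alone and in 8.0%. CAGCTG, an E box, was in none of the 8 and in 16.3% of the table. No motif was present in all 8, and a match is a description of the letters, not of a bound site.

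Levels between genes can be compared per length, in deposited TPM. Dlx1 was highest and Dlx2 next in each of the 4 groups by mean TPM. In E13.5 p18mKO2+, Dlx1 averaged 124 ± 11.2 TPM and Dlx2 69.6 ± 7.73 TPM (SD, n = 3 each), followed by Gad1, Dlx5, Gad2, Six3, Dlx6, Sp9, Gsx2 and, lowest, Sp8 at 8.41 ± 1.21 TPM. Ranges of the libraries separated Dlx1 from Dlx2, and Dlx6 from Sp9, and overlapped between the other neighbours. In E13.5 p18mKO2-, Dlx1 averaged 57.0 ± 34.9 TPM, the lowest gene was Gsx2 at 6.11 ± 1.67 TPM, and every pair of neighbours in the order overlapped. In E16.5 p18mKO2+ the order ran from Dlx1 at 91.6 ± 27.8 TPM through Dlx2, Dlx5, Gad1, Dlx6, Gad2, Six3, Sp9 and Sp8 to Gsx2 at 5.09 ± 1.09 TPM, with gaps only after Dlx1 and after Sp9. In E16.5 p18mKO2- it ran from Dlx1 at 37.4 ± 2.24 TPM through Dlx2, Gad1, Dlx5, Gad2, Sp9, Dlx6, Sp8 and Six3 to Gsx2 at 1.49 ± 0.291 TPM, with gaps after Dlx1, Dlx5 and Gad2. Six3 thus stood seventh in E16.5 p18mKO2+ and ninth in E16.5 p18mKO2-, by mean TPM.

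The question put to each gene was whether its RNA differed with p18mKO2 status at each stage. At E13.5, p18mKO2+ libraries held more RNA of Gad1, the only gene of the 10 past the threshold there, where 7.29% of all genes rose. With replicate number as a block in the fit, Dlx1, Dlx2 and Gad2 passed it as well, as did more of all genes. At E16.5 no gene was called. There, 9 of the 10 genes lay higher in p18mKO2+ without overlap in CPM, against 4.07% of all genes. Averaged over both stages, Dlx1, Dlx2, Dlx5, Six3, Gad1 and Gad2 rose in p18mKO2+, by log2 changes between 1.02 and 1.74, where 1.83% of all genes rose. All 6 of these calls were lost together in 3 of the 12 fits that left out 1 library. In bulk RNA, more cells of a type and more RNA per cell cannot be told apart, nor can fewer cells and less RNA per cell. CPM values of single libraries are given in the order of replicates 1, 2 and 3, and tests are edgeR quasi-likelihood tests with Benjamini-Hochberg adjustment over all 16798 genes, with a call at an adjusted p under 0.05.

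**Figure D1:**
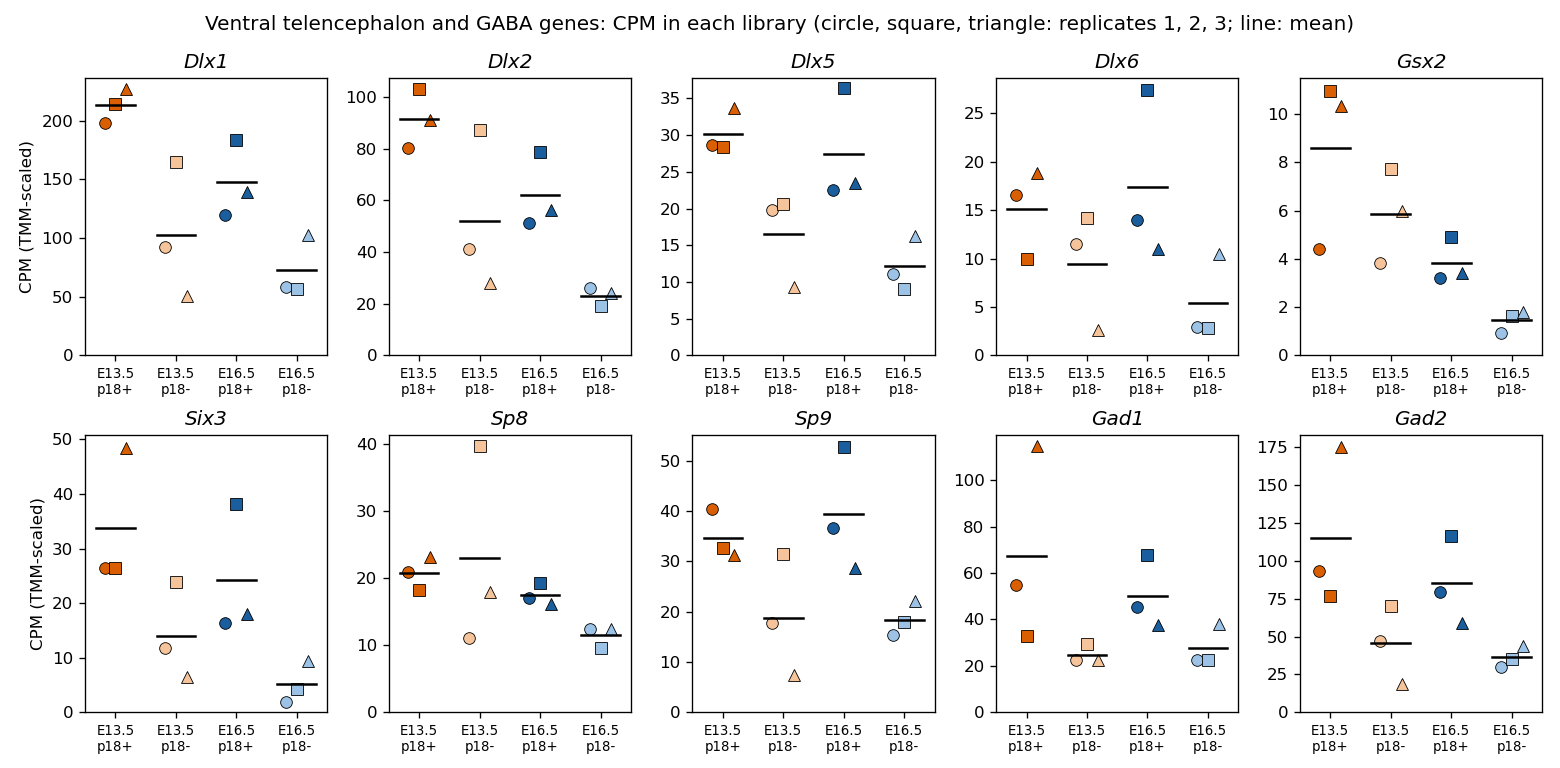
CPM of each gene (y axis, TMM-scaled library sizes, each panel with its own scale from 0) in the 12 libraries, by group (x axis; p18+ and p18- stand for p18mKO2+ and p18mKO2-). Circles, squares and triangles are replicates 1, 2 and 3 and lines are group means; the E13.5 p18mKO2- square, replicate 2, is the highest of its group in all 10 panels, as is the E16.5 p18mKO2+ square.

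Dlx1 and Dlx2 encode homeobox transcription factors that act redundantly in the differentiation and migration of GABAergic interneurons. At E13.5, Dlx1 had 198, 214 and 227 CPM in p18mKO2+ libraries, against 92.1, 165 and 50.7 CPM in p18mKO2- libraries. The groups did not overlap, p18mKO2- replicate 2 came closest to the p18mKO2+ range, and the log2 change of 1.05 ± 0.34 (SE) was not called (edgeR adjusted p = 0.0609). At E16.5, Dlx1 had 119.6, 183 and 139.5 CPM in p18mKO2+, against 58.6, 56.6 and 103 CPM in p18mKO2-. Again no library of p18mKO2- reached the p18mKO2+ range, and the log2 change was 1.02 ± 0.34 (edgeR adjusted p = 1.00).

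For Dlx2 the E13.5 libraries read 80.2, 103 and 91.1 CPM in p18mKO2+ and 41.1, 87.1 and 28.1 CPM in p18mKO2-. Replicate 2 of p18mKO2- lay inside the p18mKO2+ range, and the log2 change of 0.81 ± 0.31 was not called (edgeR adjusted p = 0.120). At E16.5 Dlx2 had 51.4, 78.8 and 56.2 CPM in p18mKO2+ and 26.0, 19.1 and 24.3 CPM in p18mKO2-. The lowest p18mKO2+ library was well above the highest p18mKO2- library, and the log2 change of 1.42 ± 0.32 had the ninth smallest p of all genes tested (edgeR adjusted p = 0.899). DESeq2 called Dlx2 at E16.5 (adjusted p = 0.0175) and no other of the 10 genes.

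Dlx5 and Dlx6, the linked pair on chromosome 6, act downstream of Dlx1 and Dlx2 in the same lineage. Dlx5 had 28.7, 28.3 and 33.6 CPM in E13.5 p18mKO2+ and 19.8, 20.6 and 9.36 CPM in E13.5 p18mKO2-, without overlap, and a log2 change of 0.87 ± 0.30 (edgeR adjusted p = 0.0789). At E16.5 it had 22.5, 36.4 and 23.4 CPM in p18mKO2+ and 11.1, 9.11 and 16.3 CPM in p18mKO2-, also without overlap, and a log2 change of 1.17 ± 0.30 (edgeR adjusted p = 1.00). Dlx6 was scarcer. It had 16.6, 10.0 and 18.8 CPM in E13.5 p18mKO2+ and 11.5, 14.2 and 2.63 CPM in E13.5 p18mKO2-, where 2 p18mKO2- libraries lay above the lowest p18mKO2+ library and the log2 change was 0.68 ± 0.58 (edgeR adjusted p = 0.523). At E16.5 Dlx6 had 13.9, 27.4 and 11.01 CPM in p18mKO2+ and 2.95, 2.80 and 10.4 CPM in p18mKO2-. The groups only just separated, with p18mKO2- replicate 3 next to p18mKO2+ replicate 3, and the log2 change was 1.69 ± 0.60 (edgeR adjusted p = 1.00).

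Gsx2 patterns the lateral ganglionic eminence as a homeobox gene of its progenitors, and Six3 is a homeobox gene of the anterior forebrain that in the eminence acts in the making of striatal neurons. Gsx2 had 4.41, 10.97 and 10.3 CPM in E13.5 p18mKO2+ and 3.84, 7.71 and 5.97 CPM in E13.5 p18mKO2-. The groups overlapped, since p18mKO2+ replicate 1 stood near the lowest p18mKO2- library, and the log2 change was 0.55 ± 0.40 (edgeR adjusted p = 0.428). At E16.5 it had 3.22, 4.91 and 3.41 CPM in p18mKO2+ and 0.921, 1.63 and 1.796 CPM in p18mKO2-, without overlap but at low levels, and a log2 change of 1.40 ± 0.42 (edgeR adjusted p = 1.00).

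Six3 had the largest log2 change of the 10 genes at E16.5 and in the average. At E13.5 it had 26.5, 26.4 and 48.4 CPM in p18mKO2+ and 11.8, 23.8 and 6.49 CPM in p18mKO2-. Replicate 3 was the highest of p18mKO2+ and replicate 2 of p18mKO2- came close to the other 2 p18mKO2+ libraries, so the groups only just separated, with a log2 change of 1.26 ± 0.53 (edgeR adjusted p = 0.150). At E16.5 it had 16.4, 38.1 and 17.97 CPM in p18mKO2+ and 1.90, 4.27 and 9.33 CPM in p18mKO2-. No library overlapped and the log2 change of 2.22 ± 0.56 was not called (edgeR adjusted p = 1.00). Its opposite-strand partner Six3os1 overlaps it, and had 35.0, 25.1 and 55.3 CPM in E13.5 p18mKO2+ and 10.1, 21.4 and 6.73 CPM in E13.5 p18mKO2-. It rose there by 1.59 ± 0.43 (edgeR adjusted p = 0.0287) and in the average over stages by 2.03 ± 0.31 (0.00668).

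Sp8 and Sp9 encode zinc finger transcription factors of lateral and caudal eminence interneurons, and Sp8 is also transcribed in cortical progenitors. Sp8 was the only one of the 10 genes with a negative change at E13.5. It had 20.9, 18.2 and 23.1 CPM in E13.5 p18mKO2+ and 11.1, 39.7 and 17.96 CPM in E13.5 p18mKO2-, where replicate 2 of p18mKO2- was the highest of all 12 libraries and the log2 change was -0.14 ± 0.34 (edgeR adjusted p = 0.848). Without that library the log2 change of Sp8 at E13.5 was 0.52. At E16.5 it had 17.1, 19.2 and 16.1 CPM in p18mKO2+ and 12.4, 9.56 and 12.5 CPM in p18mKO2-, without overlap, with a log2 change of 0.61 ± 0.34 (edgeR adjusted p = 1.00). Sp9 had 40.3, 32.6 and 31.2 CPM in E13.5 p18mKO2+ and 17.7, 31.4 and 7.43 CPM in E13.5 p18mKO2-. The groups overlapped by a single library, p18mKO2- replicate 2, and the log2 change was 0.88 ± 0.38 (edgeR adjusted p = 0.158). At E16.5 Sp9 had 36.6, 52.7 and 28.7 CPM in p18mKO2+ and 15.4, 17.9 and 22.02 CPM in p18mKO2-, without overlap (log2 change 1.09 ± 0.38, edgeR adjusted p = 1.00).

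Gad1 and Gad2 encode the glutamate decarboxylases that make GABA. Gad1 had 54.9, 32.9 and 115 CPM in E13.5 p18mKO2+ and 22.4, 29.5 and 22.5 CPM in E13.5 p18mKO2-. All p18mKO2+ libraries were higher, replicate 3 by far the most, and Gad1 rose by 1.44 ± 0.38 (edgeR adjusted p = 0.0255). Without p18mKO2+ replicate 3, one of the libraries with transcripts of both sexes, its log2 change was 0.82 (edgeR adjusted p = 0.136), and without any single E13.5 p18mKO2- library it was not called either (adjusted p between 0.0502 and 0.0819). At E16.5 Gad1 had 45.5, 67.6 and 37.6 CPM in p18mKO2+ and 22.5, 22.6 and 38.0 CPM in p18mKO2-, the one gene of the 10 whose groups overlapped at this stage, with a log2 change of 0.86 ± 0.37 (edgeR adjusted p = 1.00).

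Gad2 had 92.8, 76.5 and 175 CPM in E13.5 p18mKO2+ and 47.0, 70.4 and 19.0 CPM in E13.5 p18mKO2-. As for Gad1, replicate 3 of p18mKO2+ was the highest and the groups did not overlap, but the log2 change of 1.33 ± 0.41 fell just short of the threshold (edgeR adjusted p = 0.0514). At E16.5 it had 79.4, 116 and 59.1 CPM in p18mKO2+ and 29.7, 35.1 and 44.0 CPM in p18mKO2-, without overlap (log2 change 1.23 ± 0.41, edgeR adjusted p = 1.00).

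Counted over the 10 genes at E13.5, 1 was called higher and 0 lower, where 7.29% of all genes tested were called higher and 3.49% lower. With replicate number as a block in the fit, Dlx1 (edgeR adjusted p = 0.0408), Dlx2 (0.0475), Gad1 (0.0272) and Gad2 (0.0469) were called at E13.5. More of all genes were called in that fit as well. The groups did not overlap, with p18mKO2+ above, for 5 genes (Dlx1, Dlx5, Six3, Gad1 and Gad2), against 16.6% of all genes. The median log2 change of the 10 was 0.87, beside 0.01 over all genes, and 7 had an unadjusted p under 0.05, against 25.4% of all genes. At E16.5, edgeR called 0 of the 10 and 0 of all genes (0.0%), at a smallest adjusted p of 0.154 over all genes. Of the 10, 9 had an unadjusted p under 0.05 (all but Sp8), against 426 of all genes, or 2.54%. The same number, all but Gad1, had no overlap with p18mKO2+ above, against 4.07% of all genes, and the median log2 change was 1.201, beside -0.01 over all genes. Calls at E16.5 depended on the tool and the filter. DESeq2 called 16 of all genes and 1 of the 10, limma-voom 2 and 0, and edgeR with no filtering of low counts 81 and 8 (all but Gsx2 and Sp8).

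**Figure D2:**
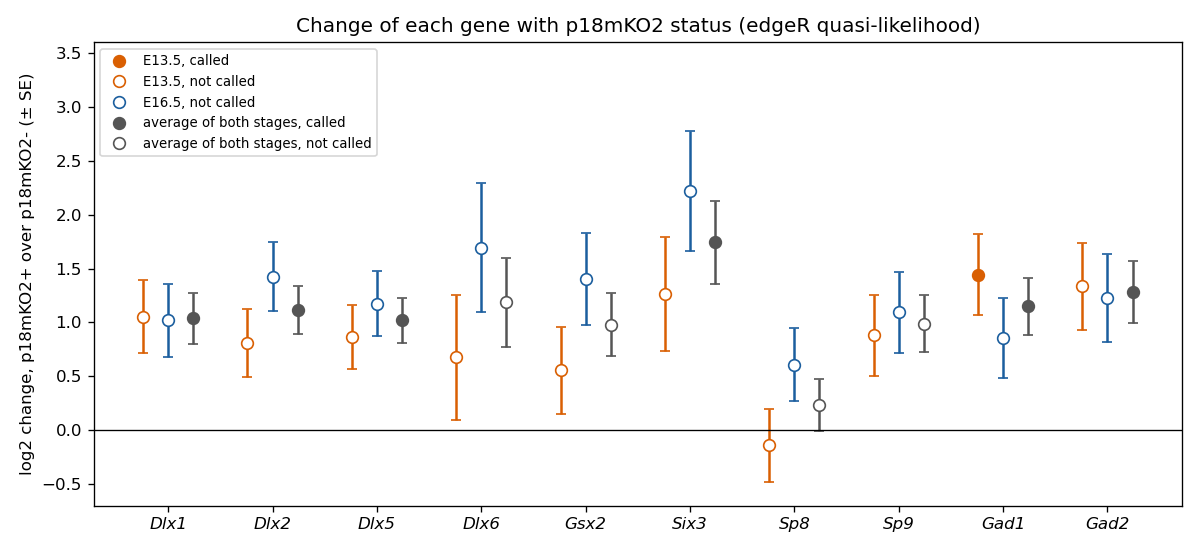
Log2 change of each gene (x axis) in p18mKO2+ over p18mKO2- (y axis, bars are SE) at E13.5 in orange, at E16.5 in blue and averaged in grey, with filled points at an edgeR adjusted p under 0.05. Of the single-stage points, Gad1 at E13.5 is filled, and 6 averages are, from 1.02 for Dlx5 to 1.74 for Six3; Sp8 at E13.5 is the one point below 0.

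With the stages averaged, 6 of the 10 genes rose and 0 fell, where 1.83% of all genes rose and 0.393% fell. Six3 rose by 1.74 ± 0.38 (SE; edgeR adjusted p = 0.0342) and Gad2 by 1.28 ± 0.29 (adjusted p = 0.0373). Gad1 rose by 1.15 ± 0.26 (edgeR adjusted p = 0.0409), Dlx2 by 1.12 ± 0.22 (0.0247), Dlx1 by 1.04 ± 0.24 (0.0409) and Dlx5 by 1.02 ± 0.21 (0.0261). Not called were Dlx6 at 1.19 ± 0.42 (edgeR adjusted p = 0.156), Sp9 at 0.99 ± 0.27 (0.0710), Gsx2 at 0.98 ± 0.29 (0.101) and Sp8 at 0.23 ± 0.24 (0.678). With the replicate block, Gsx2 (edgeR adjusted p = 0.0299) and Sp9 (0.0366) were called as well. Leaving out 1 library gave between 0 and 7 called genes: 0 without replicate 1 or 2 of E16.5 p18mKO2+ and 0 without replicate 2 of E16.5 p18mKO2-, 1 without replicate 1 or 3 of E13.5 p18mKO2+, 2 without replicate 1 of E13.5 p18mKO2-, and 3 without replicate 3 of E16.5 p18mKO2+, as without replicate 1 of E16.5 p18mKO2-. The single gene left in those fits with 1 call was Dlx2. Without replicate 3 of E13.5 p18mKO2-, Dlx1, Dlx2, Dlx5 and Gad2 were called. There were 6 calls without replicate 2 of either E13.5 group, and 7 without replicate 3 of E16.5 p18mKO2-. Among all genes the fits that left out 1 library called between 70 and 750. DESeq2 called 9 of the 10, all but Sp8, and 1127 of all genes, against 374 of all genes by edgeR.

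The design also asks whether the p18 difference itself changed between stages. For the effect at E16.5 minus that at E13.5, 0 of the 10 were called by edgeR, DESeq2 or limma-voom (2.7% of all genes were by edgeR), and 0 had an unadjusted p under 0.05, against 16.4% of all genes. The differences ran from -0.58 ± 0.52 for Gad1 to 1.02 ± 0.83 for Dlx6 (log2, SE; edgeR adjusted p = 0.660 and 0.614).

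The stages were compared within each p18mKO2 status, E16.5 against E13.5. In p18mKO2- libraries, 3 genes fell and 0 rose, where 13.4% of all genes fell and 16.4% rose. Gsx2 fell to 1.45 ± 0.464 CPM at E16.5, against 5.84 ± 1.94 CPM at E13.5 (SD, n = 3 each; log2 change -2.002 ± 0.43, edgeR adjusted p = 0.00299). Dlx2 fell to 23.1 ± 3.63 CPM at E16.5, against 52.1 ± 30.99 CPM at E13.5 (-1.17 ± 0.32, edgeR adjusted p = 0.0134). Sp8 fell to 11.5 ± 1.66 CPM, against 22.9 ± 14.96 CPM (-0.998 ± 0.34, edgeR adjusted p = 0.0408), although its groups overlapped. Stages did not overlap for Gsx2 and Dlx2, against 19.4% of all genes lower at E16.5 without overlap. Six3 was not called (-1.44 ± 0.55, edgeR adjusted p = 0.0641), and Gad1, at 27.7 ± 8.89 CPM at E16.5 and 24.8 ± 4.08 CPM at E13.5, was the one gene with a positive change (0.16 ± 0.37, adjusted p = 0.794). Leaving out replicate 2 of p18mKO2- at E13.5, or replicate 2 at E16.5, left Gsx2 as the 1 called gene. Of the fits that left out 1 library, Sp8 was called only without replicate 1 or replicate 3 of E13.5 p18mKO2-. Over 24 alternative settings, Gsx2 was called in 24, Dlx2 in 21 and Sp8 in 7. With replicate number as a block, Six3 was called (edgeR adjusted p = 0.0419) and Sp8 was not.

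In p18mKO2+ libraries 0 of the 10 were called between stages (1.64% of all genes were), and 1, Gsx2, had an unadjusted p under 0.05, against 14.8% of all genes. Gsx2 averaged 3.85 ± 0.926 CPM at E16.5 and 8.57 ± 3.62 CPM at E13.5 (SD, n = 3 each; log2 change -1.16 ± 0.41, edgeR adjusted p = 0.185). Dlx1 and Dlx2 were lower at E16.5 without overlap (-0.53 ± 0.33 and -0.56 ± 0.31), as were 2264 of all 16798 genes. The median log2 change of the 10 was -0.43 in p18mKO2+ and -0.66 in p18mKO2-. That the calls were in p18mKO2- does not show a difference from p18mKO2+, since that difference is the test between stages given above, which called none.

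Within groups, the same library tended to hold the most RNA of several of the 10 genes. Replicate 2 of E13.5 p18mKO2- was the highest of its group for all 10, with a summed level of 489 CPM beside 278 and 170.2 CPM in replicates 1 and 3. In E16.5 p18mKO2+, replicate 2 was the highest for all 10 (625 CPM summed, beside 406 and 393 CPM), and in E16.5 p18mKO2- replicate 3 was for 9 (281 CPM, beside 181 and 179 CPM). In E13.5 p18mKO2+ it was replicate 3 for 7 genes (773 CPM, beside 563 and 553 CPM). Over the 45 pairs of these genes, Pearson's r of log2 CPM across the 12 libraries lay between 0.31 and 0.95 with a median of 0.78, and with group means removed between 0.18 and 0.95 with a median of 0.63. The libraries share stage, depth and tissue makeup, so these values are descriptive. With group means removed, the linked Dlx5 and Dlx6 were highest at 0.95, followed by the unlinked Dlx1 with Dlx5 (0.90), Dlx1 with Dlx6 (0.89) and Dlx1 with Sp9 (0.88), ahead of the linked Dlx1 and Dlx2 (0.87), and Gad1 with Gad2 stood at 0.72. Within libraries the ratio of Dlx1 to Dlx2 in CPM stayed between 1.802 and 4.23.

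Library measures differed along with these genes. The summed level was 553 to 773 CPM in E13.5 p18mKO2+, against 170.2 to 489 CPM in E13.5 p18mKO2-, and 393 to 625 CPM in E16.5 p18mKO2+, against 179 to 281 CPM in E16.5 p18mKO2-. In 3 of the 4 groups the library with the lowest ribosomal RNA share had the highest sum, and in E13.5 p18mKO2- it did not. With the log2 CPM of the ribosomal RNA gene as a covariate, 0 of the 10 and 0 of all genes were called in the average, 8 of the 10 changes were still positive, their median was 0.49 and Gad1 stood at -0.01. Since the E16.5 groups do not overlap in that share, covariate and p18mKO2 status cannot be told apart there. Without both libraries that hold transcripts of both sexes, 0 of the 10 and 90 of all genes were called in the average, with a median for the 10 log2 change of 1.08 and a smallest adjusted p of 0.0611 (edgeR). With Y-linked expression as a covariate, 0 of the 10 and 17 of all genes were called, at a median of 1.14, beside 1.08 in the fit of all libraries without covariates. Since Y-linked levels were mostly higher in p18mKO2+ libraries, this covariate and p18mKO2 status cannot be fully told apart. On deposited TPM, p18mKO2+ lay above p18mKO2- without overlap at E16.5 for all 10 genes, against 14.4% of all genes. In the average limma on TPM called 9 of the 10, all but Sp8, and 620 of all genes, 602 of them higher. TPM over CPM was itself higher in p18mKO2+, with a median log2 shift over 12196 genes of 0.17 for the E13.5 and 0.27 for the E16.5 libraries.

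**Figure D3:**
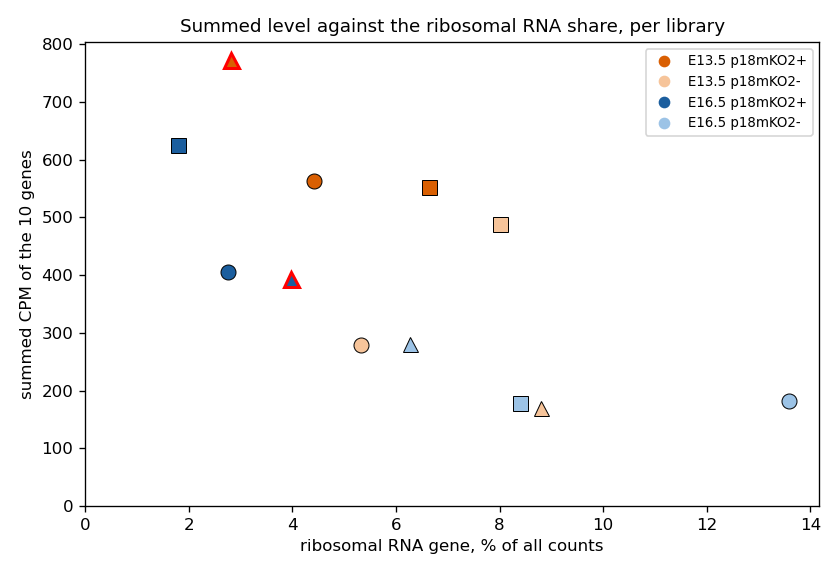
Summed CPM of the 10 genes (y axis) against the percent of all counts on the ribosomal RNA gene CT010467.1 (x axis) in each of the 12 libraries, coloured by group, with symbols for replicates 1 (circle), 2 (square) and 3 (triangle) and red outlines for the libraries with transcripts of both sexes. The E16.5 p18mKO2+ libraries lie at 1.79% to 3.97% and 393 to 625 CPM, above and left of the E16.5 p18mKO2- libraries at 6.28% to 13.6% and 179 to 281 CPM.

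The genes whose profile over the 12 libraries was most like the mean profile of the 10 were Esrrg (an orphan nuclear receptor; r = 0.96), Six3os1 (0.96), Pid1 (0.96), Olig2 (0.91), Isl1 (0.91) and Zfp503 (0.91), out of 10785 genes considered. With group means removed their r was between 0.81 and 0.94. Olig2 is a factor of ventral progenitors, and Isl1 and Zfp503 are transcribed in striatal neurons and their precursors. Isl1 averaged 21.3 TPM in E13.5 p18mKO2+ and 10.1 TPM in E13.5 p18mKO2-, and 18.7 TPM in E16.5 p18mKO2+ and 2.05 TPM in E16.5 p18mKO2-. Most opposite were the histone gene Hist1h2bg (r = -0.83), Mir6236 (-0.80) and Abt1 (-0.80). Hist1h2bg averaged 2.12 TPM in E13.5 p18mKO2+ and 5.19 TPM in E13.5 p18mKO2-, and 1.08 TPM in E16.5 p18mKO2+ and 8.52 TPM in E16.5 p18mKO2-.

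Of 6 further genes of GABA transport and breakdown, 2 rose at E13.5: Slc6a11, a GABA transporter of astrocytes, by 1.997 ± 0.22 (edgeR adjusted p = 0.000180) and Abat, which breaks GABA down, by 1.24 ± 0.30 (0.0178). The vesicular transporter Slc32a1 stood at 1.16 ± 0.43 at E13.5 and 1.21 ± 0.43 at E16.5, not called at either stage. Slc32a1 averaged 23.0 ± 3.99 CPM in E16.5 p18mKO2+ and 9.98 ± 0.634 CPM in E16.5 p18mKO2- (SD, n = 3 each), without overlap. Averaged over stages Slc6a11 (1.23 ± 0.15) and Abat (1.02 ± 0.21) rose (edgeR adjusted p = 0.00262 and 0.0261). Of all genes tested, 7.29% rose at E13.5 and 1.83% in the average.

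Marker genes of the eminences and of the striatum were counted in the same fits, where 7.29% of all genes rose at E13.5 and 3.49% fell. Of 9 genes of the lateral eminence and olfactory interneurons, 1 rose at E13.5 (Etv1, 1.23 ± 0.16, edgeR adjusted p = 0.000454) and 0 at E16.5. At E16.5 all 9 changes were positive, with a median of 1.001, and 5 were without overlap, against 4.07% of all genes. Zfp503 averaged 16.9 ± 8.74 CPM in E16.5 p18mKO2+ and 3.08 ± 1.62 CPM in E16.5 p18mKO2- (SD, n = 3 each; log2 change 2.45 ± 0.56, edgeR adjusted p = 0.899) and rose in the average by 1.60 ± 0.38 (0.0443). Of 11 striatal genes, 3 rose at E13.5: Ppp1r1b, which encodes DARPP-32, by 2.19 ± 0.46 (edgeR adjusted p = 0.00880), the dopamine receptor gene Drd1 by 1.97 ± 0.43 (0.0106) and Bcl11b, also a gene of cortical projection neurons, by 1.56 ± 0.19 (0.000387). At E16.5 0 of them were called, all 11 changes were positive, 5 without overlap (against 4.07% of all genes), and the median was 1.15. Ikzf1, a zinc finger gene, stood at 2.91 ± 0.60 there (edgeR adjusted p = 0.737).

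The counts at E13.5 in the next lists stand beside 7.29% of all genes that rose and 3.49% that fell. Of 9 medial eminence genes, 8 were tested and 2 rose at E13.5, among them Lhx6, a factor of cortical interneurons, by 1.37 ± 0.33 (edgeR adjusted p = 0.0166). At E16.5 none was called and none was without overlap, with a median log2 change of 0.16, and the patterning gene Nkx2-1 stood at 1.38 ± 0.89. The summed level of this list was 149 to 205 TPM in E16.5 p18mKO2+ and 136 to 166 TPM in E16.5 p18mKO2-. Of 5 caudal eminence genes, 4 were tested and Nr2f1, also a cortical patterning gene, fell at E13.5 by 1.52 ± 0.26 (edgeR adjusted p = 0.00255). At E16.5, 3 of these 4 changes were positive, 0 were without overlap, and the median was 0.43. Of 8 genes of migrating interneurons, the receptor gene Erbb4 (1.09 ± 0.27, edgeR adjusted p = 0.0196) and Zeb2 (1.05 ± 0.19, 0.00386) rose at E13.5, and at E16.5 the median was 0.16. Of 5 ventral progenitor genes, Olig1 rose at E13.5 by 1.88 ± 0.34 (edgeR adjusted p = 0.00363). At E16.5 all 5 changes were positive, 2 without overlap (against 4.07% of all genes), and the median was 0.60. The E13.5 medians were 0.93 (lateral), 1.02 (striatal), 0.56 (medial), -0.45 (caudal), 0.88 (migrating) and 0.81 (ventral progenitor). Higher there in p18mKO2+ without overlap were 1 lateral, 3 striatal, 3 medial, 0 caudal, 4 migrating and 2 ventral progenitor genes, against 16.6% of all genes. Lower without overlap were 1 lateral, 1 caudal and 2 migrating genes, against 14.1%. No test of a difference between lists was made.

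**Figure D4:**
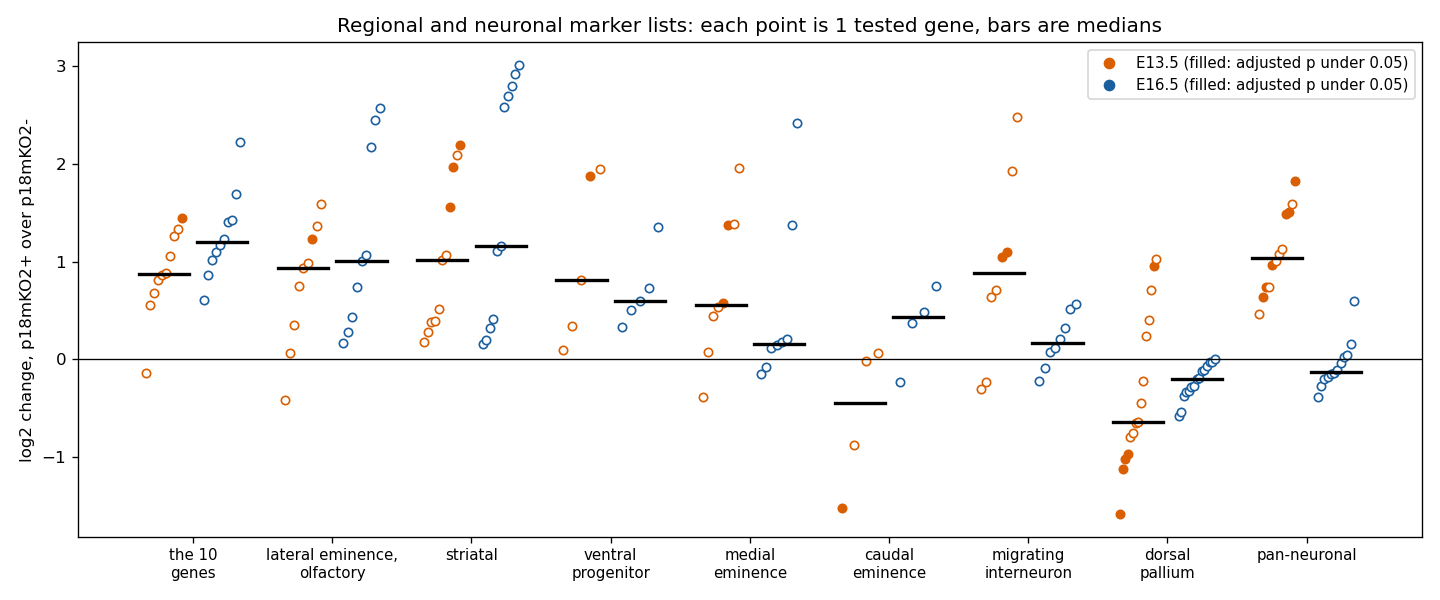
Log2 change in p18mKO2+ over p18mKO2- (y axis) of each tested gene of 9 lists (x axis) at E13.5 (orange) and E16.5 (blue), with filled points at an edgeR adjusted p under 0.05 and bars at list medians. At E16.5 the medians of the 10 genes, the lateral eminence and the striatal list lie between 1.001 and 1.201, those of the medial eminence and migrating interneuron lists at 0.16, and those of the dorsal pallium and pan-neuronal lists at -0.20 and -0.13. Those of the ventral progenitor and caudal eminence lists lie at 0.60 and 0.43. At E13.5 the medians lie at 0.87 for the 10 genes, 0.93 for the lateral eminence and 1.02 for the striatal list. There those of the ventral progenitor, medial eminence and migrating interneuron lists lie at 0.81, 0.56 and 0.88. The caudal eminence, dorsal pallium and pan-neuronal medians at E13.5 are -0.45, -0.64 and 1.04.

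Of 15 dorsal pallium genes, 1 rose at E13.5 (Tbr1, 0.96 ± 0.29, edgeR adjusted p = 0.04997) and 4 fell: Emx2 by 1.02 ± 0.16 (0.00156), Neurog1 by 1.58 ± 0.42 (0.0283), Lhx2 by 0.97 ± 0.24 (0.0202) and Dmrta2 by 1.13 ± 0.26 (0.0142). Among all genes tested, 7.29% rose at E13.5 and 3.49% fell. At E16.5 0 dorsal pallium genes were called, 1 of 15 changes was positive, and the median was -0.20. Of 12 pan-neuronal genes, 6 rose at E13.5 with all 12 changes positive and a median of 1.04, beside 0.87 for the 10 genes, and 0 at E16.5, with a median of -0.13. Summed pan-neuronal levels were 2397 to 3949 TPM in E13.5 p18mKO2+ and 1229 to 1591 TPM in E13.5 p18mKO2-, without overlap, and 3977 to 4685 TPM in E16.5 p18mKO2+ and 3487 to 3986 TPM in E16.5 p18mKO2-. The part of the neuronal share in the changes of the 10 genes was not tested.

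Markers of other cells varied too, where 7.29% of all genes rose at E13.5 and 3.49% fell. Endothelial and pericyte genes summed to 89.3 to 101 TPM in E13.5 p18mKO2+ and 49.1 to 72.0 TPM in E13.5 p18mKO2-, and 2 of 8 rose there (Cldn5 and Rgs5). Of 8 erythroid genes, the embryonic globins Hbb-y (-1.92 ± 0.45, edgeR adjusted p = 0.0147) and Hba-x (-1.98 ± 0.41, 0.00817) fell at E13.5, and both were lower again in the later p18mKO2- libraries relative to the earlier (-8.69 ± 0.64 and -6.48 ± 0.53). Microglia and meninges lists had no gene called at either stage. Choroid plexus and cortical hem genes ranged widely, from 481 to 2665 TPM in E16.5 p18mKO2+ and from 224 to 707 TPM in E16.5 p18mKO2-, with 0 of 7 tested genes called at either stage and a median log2 change of 1.54 at E16.5 and -1.50 at E13.5. None of these lists had a gene at 0 in all libraries, and their part in the changes of the 10 genes was not tested.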

How the data were processed

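Poly(A) RNA-seq libraries of laser-dissected dorsal cortex were compared in 4 groups of 3, by p18mKO2 status and stage, with groups and replicate numbers taken from the labels. Per the submitters' processing notes, the authors used cutadapt 3.4, STAR 2.7.2b and RSEM 1.2.31 with GRCm38 (mm10). Which annotation and which strandedness they chose is not stated in these sources. Per the file headers, the tables the authors deposited hold RSEM's expected count per gene, TPM, gene lengths and posterior SDs of the count for 55487 gene identifiers. Symbols and coordinates come from GENCODE vM21 (GRCm38).

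The expected counts were rounded to whole numbers, filtered with edgeR's default on low counts (16798 genes left) and scaled by TMM. One quasi-likelihood fit (edgeR 4.0.16, R 4.3.3) covered all 12 libraries with a mean for each group and 8 residual degrees of freedom, and p-values were adjusted by Benjamini-Hochberg over all genes, with a threshold of 0.05. Contrasts were the p18mKO2+ minus p18mKO2- difference at E13.5, at E16.5, averaged over stages and between stages, and E16.5 minus E13.5 within each status. The SE is the log2 change divided by the square root of F. Depth was 17101971 to 21837088 counts, and no interval beyond the replicate spread was computed. The procedure was tested on simulated data. Tried beside it were DESeq2 1.42.0, limma 3.58.1 (voom, and on log2(TPM + 1)), RLE size factors, other filters, a replicate block, fits of the compared groups alone, omission of the libraries with transcripts of both sexes, covariates for Y-linked genes and for the ribosomal RNA gene, sums with antisense genes, and omission of each library. Figures used matplotlib 3.10.9.

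The members and gene lists were chosen with earlier results of these data known. All 10 genes were named in each comparison; from the other lists, called genes and up to 4 with the smallest p could be named, and some genes of those lists are not reported here. Likeness was Pearson's r of log2 CPM (prior count 2) with the mean scaled profile of the 10 genes, for named genes of at least 5 TPM in a group; the 6 highest and 3 lowest are given.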

Additional observations from a re-analysis of the deposited data

Results flagged for a closer look

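In 6 genes given here from the GABA, eminence, interneuron, striatal and dorsal lists the p18mKO2 difference itself differed between stages, by an edgeR test of that difference adjusted over all genes, where 2.7% of all genes and none of the 10 genes described above were called. The values are log2 changes at E16.5 minus E13.5, with SE. Slc6a11, the astrocytic GABA transporter gene, differed by -1.54 ± 0.30 (edgeR adjusted p = 0.0173), with a p18mKO2 difference of 0.46 at E16.5 and 1.997 at E13.5. Zeb2, a factor of migrating interneurons and of other cells, differed by -1.27 ± 0.27 (edgeR adjusted p = 0.0240), in a list with 1 gene called higher and 1 lower. Bcl11b, of striatal and cortical projection neurons, differed by -1.15 ± 0.27 (edgeR adjusted p = 0.0394), and Etv1 by -0.95 ± 0.22 (0.0347). In the other direction, the dorsal progenitor gene Emx2 differed by 0.99 ± 0.22 (edgeR adjusted p = 0.0316), with a p18mKO2 difference of -0.03 at E16.5 and -1.02 at E13.5. Tshz1 differed by 0.85 ± 0.20 (edgeR adjusted p = 0.0392). None of these calls held under every alternative. In the GABA, lateral eminence, migrating interneuron, striatal and dorsal lists alike, 0 genes were called on TPM, without the libraries of both sexes, or without E13.5 p18mKO2+ replicate 1.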

How the results depend on the processing

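Of 1420 member changes recomputed under alternatives, 57 changed sign, 25 of them when 1 library was left out, and none of these was called under the alternative. Gad1 in the average was the only one called in the fit of all libraries. Causes were not tested.

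Members called at E13.5 (1, of 1810 genes called in all) numbered 4 (of 2681) with DESeq2, 5 (of 1809) with limma-voom, 7 (of 2527) without a filter, 2 (of 2019) at a mean CPM of at least 5, 4 (of 2369; Dlx1, Dlx2, Gad1 and Gad2) with the replicate block, and 0 with only the groups compared (of 1417), without the libraries of both sexes (of 796), or with the Y-linked (of 957) or ribosomal RNA (of 729) covariate. At E16.5 (0) there were 1 with DESeq2 and 8 without a filter. In the average (6), there were 0 without the libraries of both sexes or with either covariate, and 8 (of 703, adding Gsx2 and Sp9) with the replicate block. Of the stage calls in p18mKO2- (3), limma on TPM made 1, and the replicate block 3, with Six3 in place of Sp8. Leaving out 1 library gave 0 to 4, 0 to 0, 0 to 7 and 1 to 4 in these comparisons, and 0 to 0 in the other comparisons. Among all genes the same fits called 927 to 2383, 0 to 1, 70 to 750 and 4103 to 5001 in these comparisons. The fit of compared groups alone gives no average or difference. Of 18 same-numbered pairs, correlations of deviations ran from -0.07 to 0.28, with 8 over 0.1. The labels name no litter, and the fit of all libraries did not use the numbers as pairs. However, 11 of 12 libraries correlated best outside their group with their own number. The libraries of 1 number thus shared some variation, which the fit of all libraries ignored. What the number stands for is not stated in the labels, so the calls with the replicate block stand beside those without it.

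Log2 changes with reversed sign were these. For E13.5, Sp8 stood at 0.0608 by limma-voom, 0.21 on TPM and 0.00067 with the Y-linked covariate, Gsx2 at -0.0392 with the Y-linked covariate and Dlx6 at -0.12 with the ribosomal RNA covariate. With that covariate at E16.5, Dlx6 stood at -0.28, Gad1 at -0.68 and Gad2 at -0.21, and in the average Dlx6 at -0.20 and Gad1 at -0.0125. For the difference between stages, Sp9 stood at -0.0226 by limma-voom and -0.21 with the ribosomal RNA covariate, where Dlx5 stood at -0.19 and Dlx6 at -0.16. Without the libraries of both sexes Dlx1 stood at 0.0677, Gad1 at 0.22 and Gad2 at 0.55, and with antisense genes summed Dlx6 at -0.0536. For E16.5 against E13.5 in p18mKO2+, without the libraries of both sexes Dlx5 stood at 0.0781, Six3 at 0.0732, Gad1 at 0.40 and Gad2 at 0.24; with the ribosomal RNA covariate Dlx6 at -0.60 and Sp9 at -0.10; with antisense genes summed Dlx6 at -0.33. In p18mKO2-, Sp9 stood at 0.17 by limma-voom, 0.0099 on TPM, 0.0048 without a filter, 0.12 with the replicate block, 0.0154 with the Y-linked covariate and 0.11 with the ribosomal RNA covariate, and Gad1 at -0.0589 on TPM.

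With 1 library left out, Sp8 at E13.5 ran from -0.49 to 0.52. The difference between stages ran from -0.56 to 0.31 for Dlx1, -0.91 to 0.0471 for Gad1, -0.57 to 0.34 for Gad2 and -0.37 to 0.59 for Sp9. E16.5 against E13.5 in p18mKO2+ ran from -0.36 to 0.0043 for Dlx5, -0.24 to 0.49 for Dlx6, -0.75 to 0.22 for Gad1, -0.68 to 0.0323 for Gad2 and -0.0474 to 0.40 for Sp9, and in p18mKO2- from -0.82 to 0.0269 for Dlx1, -0.13 to 0.30 for Gad1, -0.69 to 0.13 for Gad2 and -0.41 to 0.55 for Sp9.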
